A study of Mus musculus with 6 samples.

Results

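The complement and coagulation genes compared here are 39 genes, chosen by name out of 21512 genes in the table, that encode plasma proteases, their cofactors and inhibitors, and receptors for complement fragments. RNA was measured in whole liver of 3 C57BL/6J mice given an anti-PD-1 antibody and 3 C57BL/6J mice given an isotype control antibody, every 3 days over 12 weeks. All 6 mice also received the HFD/CCl4 regimen, that is a diet rich in fat plus the liver toxin carbon tetrachloride, which models steatohepatitis (MASH) with fibrosis, so both groups carry that injury. PD-1 is a checkpoint receptor that restrains T cells, and the antibody blocks it. Sex, age and antibody clone are not given in the sources used here, and for replicates 2 and 3 of the antibody group the treatment label carries another number after "PD", while their titles name PD-1. The labels do not say how the mice were housed or allocated, so a p-value measures the spread between these samples.

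Complement is a cascade in which recognition proteins (C1q, mannose-binding lectins) switch on serine proteases that cleave C4, C2 and C3, and its terminal proteins C5 to C9 assemble a pore in the target membrane. Coagulation is a second protease cascade that ends in thrombin cutting fibrinogen into fibrin, which plasmin dissolves. Hepatocytes make most of these plasma proteins, several of them as acute phase proteins, whereas C1q comes mainly from macrophages and factor D, in the mouse, mainly from fat cells. Of the 39 genes, 33 are treated below as hepatocyte-made, 3 are the macrophage-made C1q genes, 2 are receptors of myeloid cells, and 1 is Cfd, the factor D gene.

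Values are CPM of a library scaled by the trimmed mean of M values (TMM), called units, with 3 livers per group. Depth was 15528364 to 20779319 reads per library, the median difference over all tested genes was 0.0027 on the log2 scale, and the hepatocyte gene Alb was the most abundant of the hepatocyte markers in each library. Anti-PD-1 replicate 1 stood apart on immune genes: its median over 19 genes induced by interferon-gamma lay 2.16 above the isotype control mean on the log2 scale, against 0.35 and 0.62 in anti-PD-1 replicates 2 and 3. Isotype control replicate 2 held fat cell transcripts that the other libraries lacked or nearly lacked, as given below for Cfd.

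Of the 39 genes, 38 passed the filter on low values, and none passed the test between the groups. By limma across 13990 genes, 0 of 38 passed an adjusted p of 0.05, where 0.00715% of all tested genes did, the smallest adjusted p among the 38 being 0.452. At an unadjusted p under 0.05 the count was also 0 of 38, where 11.3% of all tested genes stood. edgeR's quasi-likelihood test and DESeq2 on reads recovered from the values likewise passed 0 of the 38 after adjustment. At an unadjusted p under 0.05, edgeR with recomputed factors listed 1 and DESeq2 listed 3. The shares of all tested genes at that p by edgeR and DESeq2 are not given here, so these counts have no background. For 0 of 38 genes did the 3 anti-PD-1 values all lie on one side of the 3 isotype control values, a separation seen in 17.1% of all tested genes (7.13% higher and 9.98% lower). For each of the 38 genes, the ratio of the highest to the lowest liver in the more variable group exceeded the ratio of the group means. A range over 3 livers readily exceeds a ratio of means when groups overlap, so this adds little to the count above. Its share over all tested genes is not given here.

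**Figure D1:**
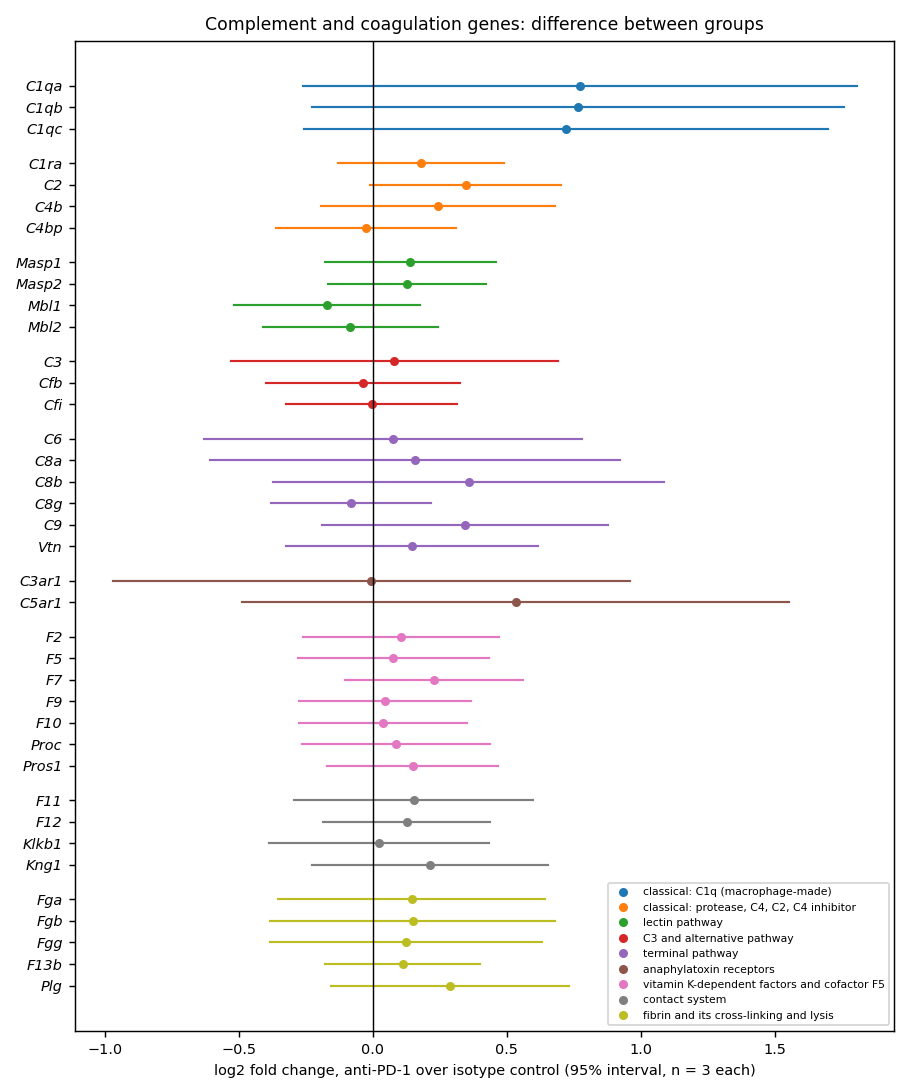
Log2 fold change of anti-PD-1 over isotype control livers for 38 genes, coloured by role, with 95% intervals from limma (n = 3 each). Each interval includes 0. The C1q genes sit near 0.77 with wide intervals, and the hepatocyte-made factors lie between -0.17 and 0.36.

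The intervals set how large a difference could have gone unseen. Among the 33 hepatocyte-made factors, the 95% interval of the fold change lay within 1.5-fold in either direction for 19 and within 2-fold for 32, where 49.7% and 81.1% of all tested genes met those bounds. The exception to the wider bound was C8b, whose interval on the log2 scale ran from -0.37 to 1.09. Their fold changes on the log2 scale had a median of 0.13, with 27 of 33 above 0, where 50.5% of all tested genes were above 0. Those 33 genes share libraries and are not independent.

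The hepatocyte-made factors moved together from liver to liver. Anti-PD-1 replicate 1 was the lowest anti-PD-1 liver for 32 of the 33 genes, a position it held for 41.5% of all tested genes. The gene that departed from this was Cfb. Anti-PD-1 replicate 3 was the highest of all 6 livers for 22 of the 33, against 2181 of all 13990 tested genes. Among the isotype control livers, replicate 1 was the highest for 28 of the 33 genes, against 37.8% of all tested genes. The median deviation from the isotype control mean, on the log2 scale, was -0.15, 0.24 and 0.29 in anti-PD-1 replicates 1 to 3, against 0.17, -0.13 and -0.01 in isotype control replicates 1 to 3. Anti-PD-1 replicate 1 therefore lay with isotype control replicate 2, at the low end.

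**Figure D2:**
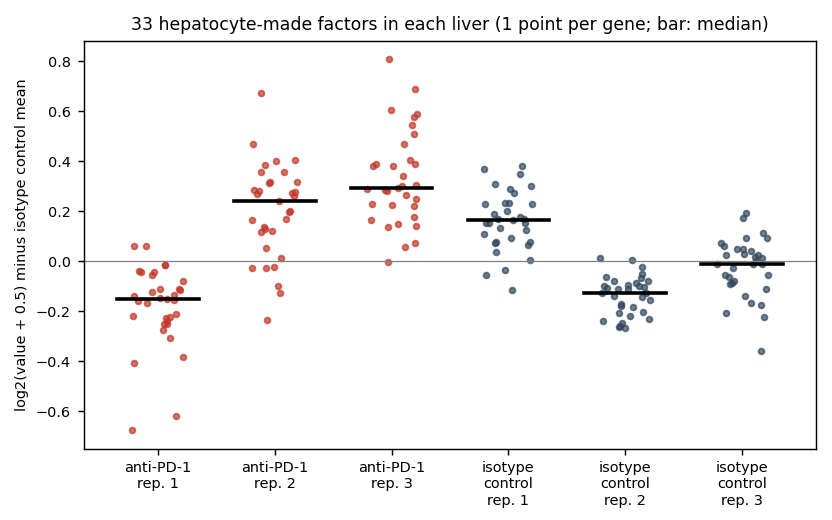
Each point is 1 of the 33 hepatocyte-made genes in 1 liver, as the difference of log2(value + 0.5) from the isotype control mean; bars are medians over genes. Anti-PD-1 replicates 2 and 3 have medians of 0.24 and 0.29, while anti-PD-1 replicate 1, at -0.15, lies below each isotype control median.

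Summed over the 33 genes, the factors came to 25144, 32372 and 34700 units in anti-PD-1 livers, against 31873, 24945 and 27199 units in isotype control livers. They made up 2.73, 3.13 and 3.23% of reads in anti-PD-1 livers, against 3.21, 2.61 and 2.65% in isotype control livers. On 12 hepatocyte markers outside the list, the median deviation was -0.22, 0.12 and 0.22 on the log2 scale in anti-PD-1 livers, against 0.07, -0.14 and 0.03 in isotype control livers. Their share of reads ordered the livers otherwise, at 10.03, 10.1 and 10.6% in anti-PD-1 livers, against 12.2, 10.2 and 11.01% in isotype control livers. By the median anti-PD-1 replicate 3 was highest, and by the share isotype control replicate 1 was. Alb was the largest part of that share in each library and was likewise highest in isotype control replicate 1. Its level was 47563, 46646 and 52819 units in anti-PD-1 livers, against 69086, 47115 and 59834 units in isotype control livers. In bulk tissue, fewer hepatocytes and less RNA per hepatocyte cannot be told apart. The part of hepatocyte content in the level of these factors was not tested.

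How far the 38 genes separated depended on the libraries included. Anti-PD-1 replicate 1 was the lowest anti-PD-1 liver for 32 of the 33 hepatocyte-made factors, so for those leaving it out can only widen upward separation. The same holds for isotype control replicate 1, the highest isotype control liver for 28 of the 33. Without anti-PD-1 replicate 1, 21 of the 38 genes had both remaining anti-PD-1 values above all 3 isotype control values (17.7% of all tested genes). At an unadjusted p under 0.05, 11 stood with a higher mean (8.01%), while 0 passed after adjustment. With isotype control replicate 1 also left out, a setting chosen after the values were seen, 29 were separated upward (24.3% of all tested genes), 19 stood at an unadjusted p under 0.05 with a higher mean (8.11%), and 1, C8b, passed after adjustment (0.693%; limma adjusted p = 0.0242, log2 fold change 0.92, with 2 livers per group). Leaving out isotype control replicate 1 alone gave 6 separated genes (12.1%) and 2 at an unadjusted p under 0.05 (3.86%).

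The classical pathway starts when C1q bound to antibody activates the proteases C1r and C1s, which cut C4 and then C2. C2, the protease subunit of the classical C3 convertase, came closest to the threshold of the 38 genes. It was at 66.0, 83.7 and 94.5 units in anti-PD-1 livers, against 72.6, 58.5 and 59.3 units in isotype control livers. The groups overlapped, because anti-PD-1 replicate 1 lay below isotype control replicate 1. Its log2 fold change was 0.35 ± 0.15 (SE, n = 3 each), with a raw limma p of 0.0546 and a limma adjusted p of 0.452. The same value stood at an unadjusted p of 0.0461 with median-of-ratios scaling and 0.0314 by DESeq2 (adjusted p = 0.435 and 0.356).

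C4b, the main liver gene of complement C4, was at 1604, 2006 and 1873 units in anti-PD-1 livers, against 1908, 1397 and 1363 units in isotype control livers. Isotype control replicate 1 lay inside the anti-PD-1 range (log2 fold change 0.24 ± 0.19, limma adjusted p = 0.657). The transcript of C4b is 95.9% identical to that of C4a over 5378 bases, so the division of reads between them is uncertain; C4a was at 9.89, 33.9 and 17.4 units in anti-PD-1 livers, against 27.0, 12.6 and 10.004 units in isotype control livers. C1ra, a C1r protease gene, averaged 266 ± 37.8 units in anti-PD-1 livers and 234 ± 21.9 units in isotype control livers (SD, n = 3 each), and it has a copy, C1rb, 97.9% identical over 2431 bases and not analysed here. C4bp, which encodes an inhibitor that helps factor I destroy C4b protein, averaged 498 ± 66.3 units in anti-PD-1 livers and 506 ± 61.0 units in isotype control livers. Serping1, the C1 inhibitor gene and not one of the 39, was at 558, 594 and 700 units in anti-PD-1 livers, against 489, 488 and 413 units in isotype control livers. These groups did not overlap, yet the gene did not pass (log2 fold change 0.41 ± 0.13, limma adjusted p = 0.343).

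In the lectin pathway, mannose-binding lectins recognise sugars on microbes and work through the MASP proteases. Both lectin genes had lower means in anti-PD-1 livers, and both protease genes had higher ones, with no difference beyond the spread. Mbl1 was at 91.8, 94.3 and 111 units in anti-PD-1 livers, against 136, 94.6 and 107 units in isotype control livers (log2 fold change -0.17 ± 0.15, limma adjusted p = 0.698). Mbl2 averaged 240 ± 25.2 units in anti-PD-1 livers and 256 ± 40.0 units in isotype control livers. Masp1 was at 198, 268 and 271 units in anti-PD-1 livers, against 221, 213 and 228 units in isotype control livers, so anti-PD-1 replicate 1 lay below all 3 isotype control livers and the other anti-PD-1 livers above them. Masp2 had the same arrangement, at 153, 206 and 187 units in anti-PD-1 livers, against 174, 166 and 156 units in isotype control livers. The ratio of Mbl1 to Mbl2 was 0.423, 0.398 and 0.415 in anti-PD-1 livers, against 0.454, 0.430 and 0.430 in isotype control livers. The groups did not overlap on this ratio, which was not tested. Several ratios were taken within libraries, and a few others were also separated while most were not.

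C3, on which all pathways converge, was at 6289, 7429 and 7925 units in anti-PD-1 livers, against 8367, 6361 and 5875 units in isotype control livers. Its highest liver was isotype control replicate 1, and the groups overlapped almost fully (log2 fold change 0.08 ± 0.26, limma adjusted p = 0.934). Cfb, the alternative pathway protease gene, was at 741, 736 and 883 units in anti-PD-1 livers, against 942, 690 and 797 units in isotype control livers. Its log2 fold change was -0.04 ± 0.16, with an interval of -0.40 to 0.33. Cfi, the gene of the protease that inactivates C3b and C4b proteins, differed least of the hepatocyte-made factors, averaging 459 ± 45.6 units in anti-PD-1 livers and 462 ± 60.6 units in isotype control livers.

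Cfd, which activates factor B, is also called adipsin and is a fat cell gene in the mouse. It had 0, 0 and 0 reads in anti-PD-1 livers, against 0, 76 and 2 reads in isotype control livers, so a single library carried nearly all of it. A count of 0 allows up to 0.144 to 0.200 units in these anti-PD-1 libraries, counting error only, and Cfd stood at 4.11 units in isotype control replicate 2. The defining fat cell genes followed the same library: Adipoq, Lep and Retn were at 5.03, 2.11 and 2.76 units in isotype control replicate 2 and at 0 in the other 5 libraries, and Plin1 was at 5.90 units there and at 0 to 0.0961 units elsewhere. The whole list of 8 fat cell markers summed to 1412 to 2098 units in anti-PD-1 livers and to 1807 to 2074 units in isotype control livers, sums carried by Car3, which liver also expresses. Cfd did not pass the filter and has no test.

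The terminal pathway held the widest spread of the hepatocyte-made factors. C8a and C8b, neighbouring genes that encode the alpha and beta chains of C8, were low in anti-PD-1 replicate 1 and high in the other anti-PD-1 livers. C8b was at 92.7, 197 and 216 units in anti-PD-1 livers, against 157, 113 and 105 units in isotype control livers. The lowest and the highest liver of all 6 were thus both anti-PD-1 livers, 2.33-fold apart (log2 fold change 0.36 ± 0.31, limma adjusted p = 0.701). C8a was at 270, 550 and 670 units in anti-PD-1 livers, against 537, 347 and 384 units in isotype control livers. C6, which joins the growing complex ahead of C8, was at 107, 212 and 257 units in anti-PD-1 livers, against 206, 158 and 152 units in isotype control livers, again with the 2 ends of the range in the anti-PD-1 group, 2.41-fold apart.

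The third C8 chain did not share this range. C8g, which encodes the lipocalin-like gamma chain and lies on another chromosome, was at 172, 215 and 221 units in anti-PD-1 livers, against 230, 195 and 215 units in isotype control livers. The ratio of C8g to C8b was 1.85, 1.09 and 1.02 in anti-PD-1 livers, against 1.46, 1.73 and 2.04 in isotype control livers, while the ratio of C8a to C8b ranged from 2.80 to 3.64. C9, the pore-forming subunit, was at 354, 507 and 557 units in anti-PD-1 livers, against 477, 359 and 285 units in isotype control livers (log2 fold change 0.34 ± 0.23, limma adjusted p = 0.610). Vtn, the vitronectin gene, whose product blocks pore insertion, averaged 1554 ± 318 units in anti-PD-1 livers and 1391 ± 208 units in isotype control livers. Hc, which encodes C5 and is not one of the 39, averaged 1148 ± 273 units in anti-PD-1 livers and 1015 ± 235 units in isotype control livers.

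**Figure D3:**
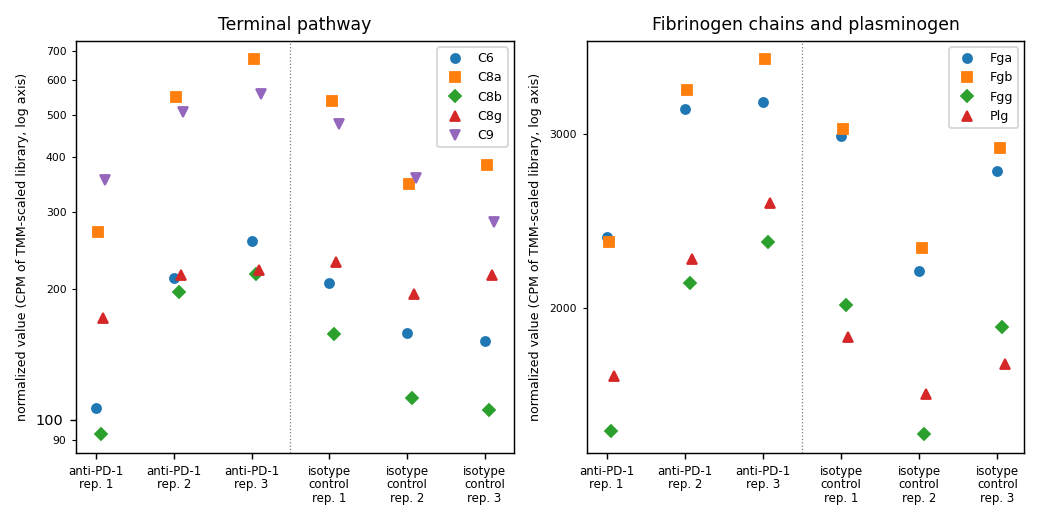
Normalized values in each liver on log axes, for terminal pathway genes (left) and for the fibrinogen chains and plasminogen (right). C6, C8a and C8b are lowest in anti-PD-1 replicate 1 and highest in anti-PD-1 replicate 3, C8g stays between 172 and 230 units, and the fibrinogen chains shift together.

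Fibrinogen is a hexamer of paired alpha, beta and gamma chains, and its 3 genes lie next to each other on mouse chromosome 3. Fgb was at 2330, 3322 and 3568 units in anti-PD-1 livers, against 3032, 2298 and 2906 units in isotype control livers. Fga was at 2357, 3182 and 3230 units in anti-PD-1 livers, against 2984, 2179 and 2750 units in isotype control livers. Fgg was at 1503, 2118 and 2334 units in anti-PD-1 livers, against 2015, 1490 and 1912 units in isotype control livers. For each chain isotype control replicate 2 was the lowest liver and anti-PD-1 replicate 3 the highest, and the log2 fold changes were 0.15 ± 0.21, 0.15 ± 0.23 and 0.12 ± 0.22 for Fga, Fgb and Fgg (limma adjusted p = 0.831, 0.840 and 0.861). The ratio of Fgg to Fgb was 0.637 to 0.654 in anti-PD-1 livers and 0.648 to 0.664 in isotype control livers. The ratio of Fga to Fgb was 0.905 to 1.01 in anti-PD-1 livers and 0.946 to 0.984 in isotype control livers.

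Because the 3 chains shifted together from liver to liver, the 250 bases before each start site are shown, from RefSeq on build GRCm38.p6, 5′ to 3′ on the gene's strand. Capitals mark matches on either strand to a TATA box (TATAAA), HNF1 (GTTAAT), C/EBP (TTGNNCAA), the IL-6 response element (CTGGGAA), GAS (TTCNNNGAA) or PU.1 (GAGGAA).
Fgg (chr3:83007474-83007723, plus strand): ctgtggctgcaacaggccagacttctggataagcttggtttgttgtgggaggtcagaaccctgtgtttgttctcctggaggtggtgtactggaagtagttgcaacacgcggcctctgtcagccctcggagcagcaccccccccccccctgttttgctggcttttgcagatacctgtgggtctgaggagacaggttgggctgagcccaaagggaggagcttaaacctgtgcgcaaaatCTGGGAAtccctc
Fga (chr3:83025903-83026152, plus strand): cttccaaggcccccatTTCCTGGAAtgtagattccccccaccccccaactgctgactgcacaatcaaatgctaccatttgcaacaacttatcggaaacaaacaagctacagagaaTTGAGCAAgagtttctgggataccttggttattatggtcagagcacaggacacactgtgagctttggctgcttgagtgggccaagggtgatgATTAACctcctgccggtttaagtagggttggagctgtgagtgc
Fgb (chr3:83049864-83050113, minus strand): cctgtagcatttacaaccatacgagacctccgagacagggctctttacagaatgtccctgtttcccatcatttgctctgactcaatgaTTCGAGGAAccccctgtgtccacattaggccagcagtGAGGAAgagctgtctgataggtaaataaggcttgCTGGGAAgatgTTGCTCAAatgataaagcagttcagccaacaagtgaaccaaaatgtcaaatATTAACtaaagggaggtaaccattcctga
HNF1 and C/EBP are hepatocyte factors, the IL-6 response element drives acute phase transcription, and GAS binds STAT proteins. The Fga window holds matches to HNF1, C/EBP and GAS, and the Fgb window to HNF1, C/EBP, the IL-6 response element, GAS and PU.1, with 1 PU.1 match lying inside the GAS match. The Fgg window holds the IL-6 response element letters, 13 bases before the start. Of 32851 windows of this length, 6.43% hold the HNF1 letters, 5.65% C/EBP, 9.10% the IL-6 response element, 7.02% GAS, 23.3% PU.1 and 12.4% the TATA box. Windows were at hand for 30 of the 39 genes, 31 windows in all, of which 8 hold HNF1, 6 C/EBP, 5 the IL-6 response element, 6 GAS, 4 PU.1 and 3 the TATA box. A match describes the letters only.

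Plg, which encodes plasminogen, the precursor of the enzyme that dissolves fibrin, was at 1705, 2242 and 2553 units in anti-PD-1 livers, against 1870, 1637 and 1754 units in isotype control livers. The upper anti-PD-1 livers lay above all isotype control livers and anti-PD-1 replicate 1 among them (log2 fold change 0.29 ± 0.19, limma adjusted p = 0.610). F13b, the carrier subunit of the fibrin cross-linking factor XIII, averaged 201 ± 21.2 units in anti-PD-1 livers and 186 ± 20.8 units in isotype control livers.

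The vitamin K-dependent factors carry gamma-carboxyglutamate residues that bind them to membranes, and F5 is the cofactor of factor X. All 7 genes of this group had means slightly higher in anti-PD-1 livers, with log2 fold changes of 0.04 to 0.23, and 0 of 7 passed. F2, the prothrombin gene, was at 930, 1182 and 1240 units in anti-PD-1 livers, against 1088, 934 and 1076 units in isotype control livers. F7, which starts the tissue factor pathway, was at 54.0, 66.9 and 77.2 units in anti-PD-1 livers, against 60.7, 51.5 and 55.3 units in isotype control livers (log2 fold change 0.23 ± 0.14, limma adjusted p = 0.586). F9 and F10, which act in turn to make thrombin, averaged 190 ± 31.1 and 250 ± 32.6 units in anti-PD-1 livers, against 183 ± 17.5 and 243 ± 26.9 units in isotype control livers. F5 averaged 1162 ± 179 units in anti-PD-1 livers and 1093 ± 37.5 units in isotype control livers. Among the anticoagulants, Proc, the protein C gene, averaged 232 ± 42.7 units in anti-PD-1 livers and 216 ± 15.5 units in isotype control livers, and Pros1, its cofactor protein S, 74.3 ± 9.38 units in anti-PD-1 livers and 67.0 ± 9.62 units in isotype control livers. Serpinc1, the antithrombin gene and not one of the 39, averaged 1136 ± 131 units in anti-PD-1 livers and 1226 ± 134 units in isotype control livers.

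The contact system starts clotting on charged surfaces and releases bradykinin from kininogen. F11 was at 38.7, 53.1 and 65.9 units in anti-PD-1 livers, against 42.5, 43.7 and 52.8 units in isotype control livers. Its range in anti-PD-1 livers enclosed the isotype control range (limma adjusted p = 0.797). F12, which begins the cascade, averaged 295 ± 48.8 units in anti-PD-1 livers and 268 ± 10.1 units in isotype control livers, and Klkb1, the plasma prekallikrein gene, 308 ± 71.1 units in anti-PD-1 livers and 297 ± 18.7 units in isotype control livers. Kng1, which encodes kininogen, was at 1338, 1763 and 1872 units in anti-PD-1 livers, against 1482, 1199 and 1594 units in isotype control livers (log2 fold change 0.21 ± 0.19, limma adjusted p = 0.704). Its transcript is 91.1% identical to that of Kng2 over 2256 bases, so reads may be divided between the copies, and the ratio of Kng2 to Kng1 ranged from 0.128 to 0.141.

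C1q, the recognition protein of the classical pathway, is built from 3 chains encoded side by side on mouse chromosome 4 and made by macrophages. Its genes had the largest log2 fold changes among the 38 and did not pass, and anti-PD-1 replicate 1 stood far above the other livers. C1qa was at 95.6, 24.1 and 35.4 units in anti-PD-1 livers, against 31.6, 24.3 and 20.9 units in isotype control livers. C1qb was at 160, 49.7 and 57.0 units in anti-PD-1 livers, against 64.0, 38.5 and 36.9 units in isotype control livers. C1qc was at 100, 29.0 and 41.9 units in anti-PD-1 livers, against 41.4, 26.7 and 24.0 units in isotype control livers. For C1qa, anti-PD-1 replicate 2 lay below isotype control replicate 2, and for C1qb and C1qc it lay between isotype control replicates 1 and 2.

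The log2 fold changes were 0.77 ± 0.45, 0.77 ± 0.43 and 0.72 ± 0.42 for C1qa, C1qb and C1qc, with limma adjusted p of 0.558, 0.545 and 0.564. Without anti-PD-1 replicate 1 they were 0.21, 0.24 and 0.22. Without anti-PD-1 replicate 2 they were 1.19, 1.078 and 1.10. With the replicate number as a block, the 3 genes stood at a raw, unadjusted limma p of 0.0390, 0.0075 and 0.0171. Their limma adjusted p were 0.304, 0.167 and 0.227, and 7.75% of all tested genes were higher at an unadjusted p under 0.05. This block rests on correlations in these same values, not on the labels. The widest interval, that of C1qa, ran from a 0.835-fold to a 3.50-fold level.

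Windows of 250 bases before the start of C1qb and C1qc, the chains that RefSeq covers at hand, are shown because the chains shifted together; capitals mark the same motifs.
C1qb (chr4:136886201-136886450, minus strand): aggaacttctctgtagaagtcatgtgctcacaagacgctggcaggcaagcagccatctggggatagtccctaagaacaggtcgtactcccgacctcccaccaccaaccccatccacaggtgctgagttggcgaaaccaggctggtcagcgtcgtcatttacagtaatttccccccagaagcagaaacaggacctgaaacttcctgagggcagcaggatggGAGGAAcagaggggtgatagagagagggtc
C1qc (chr4:136892915-136893164, minus strand): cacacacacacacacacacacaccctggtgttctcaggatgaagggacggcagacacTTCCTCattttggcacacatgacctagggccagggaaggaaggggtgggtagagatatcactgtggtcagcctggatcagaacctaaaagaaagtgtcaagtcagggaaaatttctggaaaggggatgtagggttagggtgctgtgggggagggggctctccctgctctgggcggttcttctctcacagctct
Each window holds a single match, to PU.1, a factor of the macrophage lineage, 30 bases before the start in C1qb and, on the opposite strand, 193 bases before it in C1qc. The PU.1 letters occur in 23.3% of all 32851 windows. Of the 31 windows at hand 4 hold them, including those of the hepatocyte-made F7 and Fgb.

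General macrophage markers were, like C1q, highest in anti-PD-1 replicate 1, in 7 of 8 genes, against 2482 of all 13990 tested genes. All 8 pan-macrophage genes tested had a higher mean log2 value in anti-PD-1 livers (median log2 fold change 0.44), 1 at an unadjusted p under 0.05 and 0 after adjustment by limma, where 50.5% of all tested genes had a higher mean and 5.04% were higher at that unadjusted p. Without anti-PD-1 replicate 1, 4 of the 8 had a higher mean (50.9% of all tested genes), the median was 0.0081, and 0 stood at an unadjusted p under 0.05. Their summed level was 443 to 1298 units in anti-PD-1 livers and 433 to 585 units in isotype control livers, with none at 0. Csf1r, the macrophage growth factor receptor gene, was at 167, 77.4 and 88.6 units in anti-PD-1 livers, against 106, 62.3 and 66.2 units in isotype control livers, with the same highest 4 libraries, in the same order, as C1qb. The summed C1q level over the summed macrophage list was 0.274, 0.232 and 0.245 in anti-PD-1 livers, against 0.234, 0.207 and 0.183 in isotype control livers. Without Lyz2, the most abundant gene of that list in every library but isotype control replicate 3, the ratio was 0.671, 0.325 and 0.393 in anti-PD-1 livers, against 0.387, 0.298 and 0.247 in isotype control livers. The part of macrophage number in the C1q level was not tested.

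Markers of resident Kupffer cells, unlike C1q, had mostly lower means in anti-PD-1 livers, although within each group their sum was highest in replicate 1, as C1q was. Of 7 such genes, 6 had lower mean log2 values in anti-PD-1 livers, 5 at an unadjusted p under 0.05 (6.24% of all tested genes) and 0 after adjustment by limma (median log2 fold change -1.59). Without anti-PD-1 replicate 1, 7 of 7 had lower means (6863 of all 13990 tested genes), with a median log2 fold change of -2.05. Of the 7, 5 stood at an unadjusted p under 0.05 (7.06% of all tested genes). After adjustment 1 was lower, against 6 of all 13990 tested genes. Their summed level was 151 to 204 units in anti-PD-1 livers and 157 to 366 units in isotype control livers, with none at 0. Vsig4, among them, is itself a complement receptor that takes up C3b-coated particles, and it was at 20.03, 2.00 and 4.60 units in anti-PD-1 livers, against 25.4, 15.4 and 16.8 units in isotype control livers. Anti-PD-1 replicate 1 lay within the isotype control range, and the other anti-PD-1 livers lay below it (log2 fold change -1.59 ± 0.67, limma adjusted p = 0.431). Cd5l and Folr2, also of the 7, had log2 fold changes of only -0.024 ± 0.33 and 0.037 ± 0.27 (limma adjusted p = 0.985 and 0.971). Cd5l was the most abundant of the 7 in each library. It was at 126, 123 and 102 units in anti-PD-1 livers, against 209, 75.9 and 104 units in isotype control livers. The summed C1q level over the summed Kupffer cell list was 1.74, 0.595 and 0.887 in anti-PD-1 livers, against 0.375, 0.571 and 0.399 in isotype control livers. That Kupffer cell sum was carried in large part by Cd5l.

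**Figure D4:**
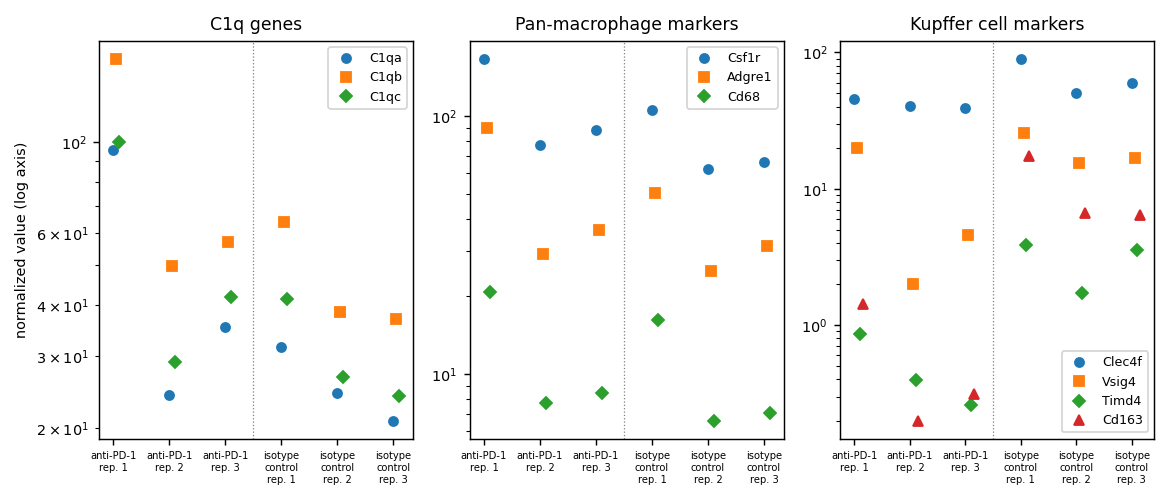
Normalized values on log axes in each liver for the C1q genes (left), pan-macrophage markers (middle) and Kupffer cell markers (right). C1q, Csf1r and Adgre1 are highest in anti-PD-1 replicate 1, where C1qb is at 160 units. Timd4 and Cd163 are below every isotype control liver in all 3 anti-PD-1 livers. Cd5l, Folr2 and Marco, also of the Kupffer cell list, are not plotted (log2 fold changes -0.024, 0.037 and -2.17).

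The receptors C3ar1 and C5ar1, which bind the fragments C3a and C5a and sit mainly on myeloid cells, were among the least abundant of the genes. C5ar1 was at 8.36, 2.53 and 2.95 units in anti-PD-1 livers, against 2.97, 3.68 and 1.61 units in isotype control livers, or 32 to 174 reads. Only anti-PD-1 replicate 1 lay above the isotype control range (log2 fold change 0.53 ± 0.44, limma adjusted p = 0.680). Without that library the C5ar1 log2 fold change was 0.048. C3ar1 was at 19.9, 7.19 and 9.73 units in anti-PD-1 livers, against 17.5, 11.6 and 6.94 units in isotype control livers. Its log2 fold change was -0.0061 ± 0.42, and its interval of -0.97 to 0.96 leaves a difference of nearly 2-fold either way undetectable at this spread. Monocyte markers summed to 76.9, 12.98 and 21.8 units in anti-PD-1 livers, against 28.5, 21.3 and 12.9 units in isotype control livers. Neutrophil markers summed to 40.3, 7.1 and 11.4 units in anti-PD-1 livers, against 9.4, 9.3 and 8.7 units in isotype control livers. Both sums were highest in anti-PD-1 replicate 1, and their part in the receptor levels was not tested.

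Per length of exon, the genes spanned a wide range of levels, in units per kilobase and as group means. C3 led at 1405 in anti-PD-1 livers and 1337 in isotype control livers. Fga followed at 971 in anti-PD-1 livers and 876 in isotype control livers, then Fgg at 948 and Vtn at 891 in anti-PD-1 livers, against 863 and 798 in isotype control livers. C3 was above Fga in each of the 6 livers, while the ranges of Fga, Fgg and Vtn over livers overlapped in both groups. C2 was at 29.2 per kilobase and C4b at 340 in anti-PD-1 livers, against 22.8 and 289 in isotype control livers. C1qb was at 81.7 per kilobase in anti-PD-1 livers and 42.7 in isotype control livers, and C5ar1 was at 1.79 in anti-PD-1 livers and 1.07 in isotype control livers. Masp1 has isoforms of several lengths that the table does not separate, so its value per length is approximate.

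**Figure D5:**
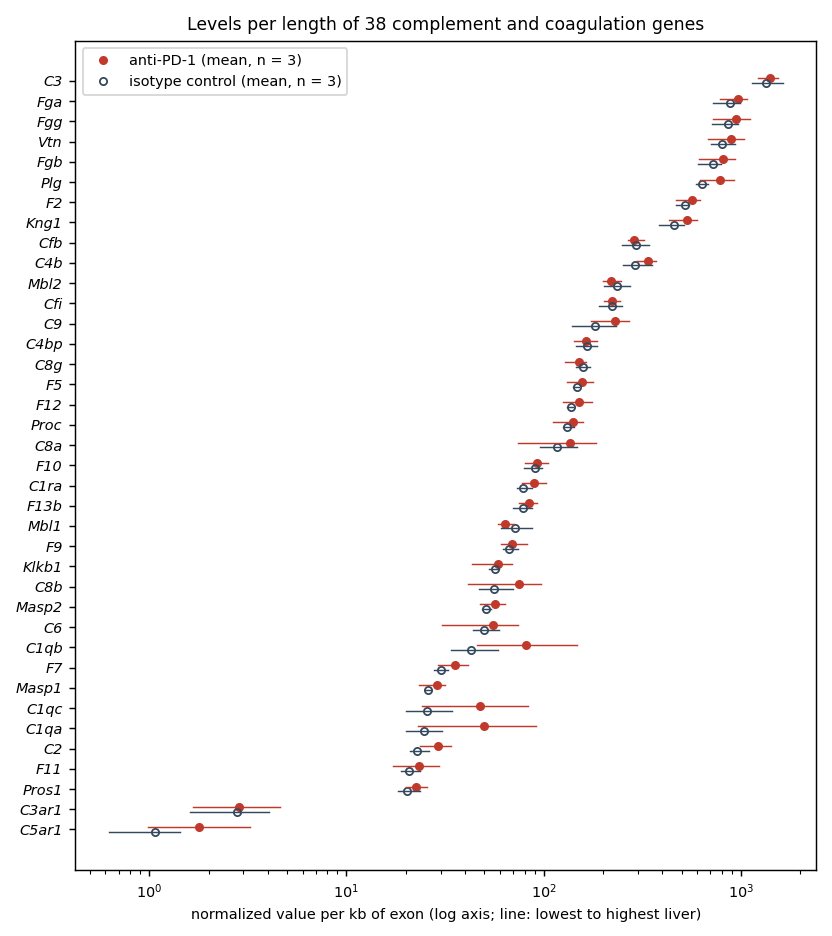
Level per kilobase of exon on a log axis for the 38 genes with reads in both groups, ordered by the isotype control mean; points are group means and lines run from the lowest to the highest liver. The levels run from C3, at 1405 in anti-PD-1 livers and 1337 in isotype control livers, to C5ar1, at 1.79 and 1.07, and the lines of the groups overlap for every gene.

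Beyond the 39, 33 further complement genes and 33 further coagulation genes were listed, of which 29 of each were tested and 0 passed after adjustment by limma. At an unadjusted p under 0.05, 1 of 29 tested complement genes was higher and 3 were lower, and 0 of 29 tested coagulation genes were higher and 2 lower, where 5.04% and 6.24% of all tested genes were. Their median log2 fold changes were -0.0054 and 0.04. Serping1 and Vsig4, described above, were among these genes. Cd59a, a membrane inhibitor of the terminal pore, was at 33.3, 31.1 and 37.1 units in anti-PD-1 livers, against 44.5, 41.4 and 46.8 units in isotype control livers (log2 fold change -0.38 ± 0.11, limma adjusted p = 0.281). C5ar2, the second C5a receptor, was at 2.11, 1.73 and 1.60 units in anti-PD-1 livers, against 4.53, 3.14 and 2.56 units in isotype control livers (limma adjusted p = 0.348). Tfpi2, a protease inhibitor, averaged 41.3 ± 4.42 units in anti-PD-1 livers and 51.0 ± 2.40 units in isotype control livers (limma adjusted p = 0.3797). Mcfd2, which helps carry factors V and VIII out of the endoplasmic reticulum, averaged 134 ± 8.98 units in anti-PD-1 livers and 163 ± 17.3 units in isotype control livers (limma adjusted p = 0.416). For these 4 genes, named for their small p, the groups did not overlap. Of the 29 tested complement genes, 1 was separated upward and 3 downward. Of the 29 tested coagulation genes, 2 were separated upward and 3 downward, where 7.13% and 9.98% of all tested genes were.

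Acute phase genes, the wider programme to which several of these factors belong, were also listed. Of 17 tested, 11 had positive and 6 negative log2 fold changes (median 0.13), where 50.5% of all tested genes were positive. By limma, 0 stood at an unadjusted p under 0.05 (11.3% of all tested genes) and 0 passed after adjustment. Without anti-PD-1 replicate 1, 14 of the 17 were positive (50.9% of all tested genes), with a median of 0.20. Of the 14, 3 stood at an unadjusted p under 0.05 (8.01% of all tested genes). Genes induced by interferon-gamma, listed for comparison, were positive in 19 of 19 (50.5% of all tested genes), with 9 at an unadjusted p under 0.05 (5.04% of all tested genes were higher at that p) and 0 after adjustment. All 19 were highest in anti-PD-1 replicate 1, against 2482 of all 13990 tested genes. Without that library, 16 of 19 were positive (50.9% of all tested genes), with a median of 0.55. Of the 19, 10 stood higher at an unadjusted p under 0.05 (8.01% of all tested genes) and 0 after adjustment. Leaving that library out of these lists was chosen after the values were seen.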

How the data were processed

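Whole-liver RNA of 6 mice was sequenced after ribosomal RNA depletion with a directional library kit, per the labels' protocols; whether counting used strand is not given in the sources used here. Build GRCm39 and the tools RSEM 1.3.0, edgeR, Bowtie2 and Trimmomatic 0.38 stand in the submitters' processing notes, without roles. The authors deposited 1 normalized signal per gene and library; dividing by what 1 read is worth gave whole reads, within 0.001 read, for 100% of values in each library. TMM factors recomputed from them equalled the implied ones, which gives the unit as CPM of a TMM-scaled library. Symbols came from a table of names that matched 21407 identifiers.

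The 13990 genes that reached 1 unit in 3 or more libraries entered a two-sided limma-trend fit (limma 3.58.1, R 4.3.3) of log2(value + 0.5). P-values were adjusted over all of them by Benjamini and Hochberg's method, with a threshold of 0.05, and folds are on that log2 scale. edgeR 4.0.16 and DESeq2 1.42.0 ran on recovered reads, with edgeR calling 1 gene with the authors' factors and 0 with recomputed ones. In the latter run, factors and library sizes were recomputed from the reads of the 13990 filtered genes alone. With 3 livers a group, the smallest two-sided p of an exact permutation test is 0.1. The limma step was tested on simulated data. Lengths are unions of GENCODE M21 exons and identities come from BLAST 2.17.0; that annotation is of an older build than the submitters name, so no coordinates of the deposited data are given. Same-numbered libraries deviated together (correlations of 0.149, 0.135 and 0.251), which by the rule used treats the numbers as pairs; this rests on the values alone. The 39 genes and all lists were chosen with earlier results of these data known. All 39 are named; of the other pathway genes, up to 6 per direction with the smallest unadjusted p under 0.05, and Hc, C4a and Serpinc1; 1 further gene of that rule is not reported here.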

Additional observations from a re-analysis of the deposited data

How the results depend on the processing

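The main result, 0 of 38 genes past the adjusted threshold, held in every alternative run except without both libraries numbered 1, chosen after the values were seen, where 1 gene, C8b, passed. Counts over all genes were less stable. The count of all genes past the threshold, 1 higher and 0 lower, was 0 higher by edgeR with recomputed factors, 147 higher and 109 lower by DESeq2, 27 higher and 13 lower with the replicate block, and 97 higher and 36 lower without both libraries numbered 1. With 1 library left out in turn it ran from 0 to 24 higher and from 0 to 6 lower. The count of the 38 genes higher at an unadjusted p under 0.05 was 0 in the main test (5.04% of all tested genes). It was 1 with no filter, 1 with median-of-ratios scaling, 1 by edgeR with recomputed factors and 3 by DESeq2. For these runs the shares over all tested genes are not given here. It was 3 with the replicate block (7.75%), which changed no other call on these genes, and 19 without both libraries numbered 1 (8.11%). With 1 library left out it ran from 0 to 11, the 11 being without anti-PD-1 replicate 1 (8.01% of all tested genes). The count whose groups did not overlap was 29 higher without both libraries numbered 1 (24.3% of all tested genes). With 1 library left out that count ran from 0 to 21 higher and from 0 to 1 lower. The 21 were without anti-PD-1 replicate 1 (17.7% of all tested genes). Shares for the other ends of these ranges are not given here. Group medians of log2 fold changes that moved did so without both libraries numbered 1: 0.42 for the classical protease group, 0.20 for the lectin pathway and 0.66 for the terminal pathway. The cause of these shifts was not tested.

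Signs turned for the genes below, whose main log2 fold changes lay between -0.17 and 0.16. Without both libraries numbered 1 the log2 fold change was 0.16 for C4bp, 0.024 for Mbl1, 0.11 for Mbl2, 0.12 for Cfb, 0.15 for Cfi and 0.089 for C8g. With quantile normalization it was -0.015 for C3, -0.0021 for F9, -0.041 for F10, -0.0056 for Proc and -0.049 for Klkb1. With upper-quartile scaling the Klkb1 log2 fold change was -0.0013. With median-of-ratios scaling it was 0.0055 for Cfi and 0.0031 for C3ar1. By DESeq2 the Cfi log2 fold change was 0.0047 and the C3ar1 log2 fold change 0.054. edgeR gave 0.038 with the authors' factors and 0.049 with recomputed ones for C3ar1. With 1 library left out in turn, log2 fold changes that turned ran from -0.12 to 0.072 for C4bp, -0.19 to 0.034 for Mbl2, -0.023 to 0.23 for C3, -0.145 to 0.080 for Cfb, -0.11 to 0.085 for Cfi, -0.18 to 0.45 for C6, -0.11 to 0.55 for C8a, -0.15 to 0.034 for C8g, -0.41 to 0.30 for C3ar1, -0.026 to 0.20 for F5, -0.083 to 0.14 for F9, -0.053 to 0.14 for F10, -0.0043 to 0.25 for Proc, -0.025 to 0.355 for F11, -0.11 to 0.23 for Klkb1 and -0.0085 to 0.31 for Fgg. Among tested genes, C5ar1 had the lowest count, 32 reads in 1 library, and Cfd had too few reads to test.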
